A study of Homo sapiens with 6 samples.

Results

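ERLIN1 and ERLIN2, the ubiquitin ligase RNF170 that binds them, and a core set of the endoplasmic reticulum (ER) degradation machinery (SYVN1, SEL1L, DERL1, DERL2 and VCP) were followed through an array comparison of LNCaP cells. These 8 genes, among 18665 named genes on the arrays, were taken by gene symbol (current or older), and every probe of each was kept on its own, giving 12 of the 48802 probes. The set was selected on the difference between groups at the ERLIN2 probes, since 1 of them was among the largest decreases under the labels while the others were not. The ERLIN2 values are therefore given as a description without a test, and the other 7 genes, which were listed for their role, carry the p-values of the fit over all probes.

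LNCaP is an androgen-sensitive prostate cancer line derived from a lymph node metastasis. The cells were transiently transfected with a lipid reagent and 30 nM of a synthetic precursor, either pre-miR-331-3p or the negative control pre-miR-NC, and total RNA was taken after 24 h. Each group has 3 arrays (A, B and C), with no untransfected cells, and nothing in the labels says whether the letters stand for separate cultures, so the p-values speak of the scatter among these arrays, which may be technical. The line, the dose, the time and the transfection reagent were shared by all 6 arrays, and the labels give no difference between the groups other than the precursor. The values are Illumina Human-6 v3 bead signals on a log2 scale, deposited after variance stabilization and quantile normalization. They run from 6.52 to 13.94 with a median of 6.87. Signals near that median are dim, and variance stabilization compresses differences there. In bulk RNA, fewer cells of one kind and less RNA per cell cannot be told apart.

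The groups are called miR-331-3p arrays and miR-NC arrays after their labels. For RRBP1, ERBB2, DOHH and RALA, which the paper lists as down regulated by miR-331-3p, the direction under the labels is the opposite of the paper's. In the deposited values these genes were higher in the miR-331-3p arrays, at log2 differences of 2.01, 1.11, 0.66 and 0.96. Whether the labels of the groups are exchanged is not settled by the files used here. Every direction below holds as labelled, and would turn if they were. The cell line was checked against marker genes. Of 8 prostate luminal marker genes with a probe (among them KLK3, HOXB13 and KRT18), all had a probe with a mean signal of at least 8. Among these, 2 (KLK2 and TMPRSS2) were higher in the miR-331-3p arrays, by 0.33 and 0.53 on the log2 scale (adjusted p = 0.015 and 0.0023 from limma). Over the 10503 named genes with a tested probe, 5.49% had a probe called higher. The call of TMPRSS2 was lost with the methods' t-test (0.073), and that of KLK2 without miR-NC replicate A (0.058) or B (0.067). The other 6 did not pass, KLK3 at -0.23 (adjusted p = 0.16) among them. All 9 marker genes of basal and other cell types with a probe lay between 6.69 and 7.24 in mean signal. The part of the luminal markers in the results was not tested.

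ER-associated degradation removes misfolded or regulated proteins from the ER. A membrane-bound ubiquitin ligase marks the protein, a channel moves it to the cytosol, and the ATPase VCP pulls it out for the proteasome. SYVN1 (HRD1) is the best known of these ligases and SEL1L is its adaptor, while DERL1 and DERL2 are membrane proteins of the export channel. ERLIN1 and ERLIN2 belong to the SPFH family, form large ring-like assemblies in the ER membrane, bind activated IP3 receptors and bring them to RNF170 for degradation. They have also been tied to sterol-dependent degradation.

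The agent itself is printed here because every comparison turns on it. The mature strand of the transfected precursor, as RefSeq gives it (GRCh38.p14, chr12:95308480-95308500, plus strand), is shown 5′ to 3′ with the seed, bases 2 to 8, in capitals.
hsa-miR-331-3p: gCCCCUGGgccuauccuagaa
The seed is the part that pairs with target transcripts. Target sites were not analysed here.

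ERLIN2 was read by 3 probes, annotated to the transcripts NM_007175, NM_001003790 and NM_001003791. The NM_007175 probe had log2 signals of 8.30, 8.20 and 8.23 in miR-331-3p arrays A, B and C, against 9.27, 9.20 and 9.34 in miR-NC arrays A, B and C. The lowest miR-NC array lay far above the highest miR-331-3p array, and the arrays of each group lay close together (SD 0.053 in miR-331-3p arrays and 0.070 in miR-NC arrays, n = 3 each). The log2 difference was -1.03, a signal 2.04-fold lower in the miR-331-3p arrays, and it ranked 5 from the largest decrease among the 16752 probes tested. This is the value that brought ERLIN2 into the set.

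The other ERLIN2 probes differed far less. The NM_001003791 probe had 7.11, 6.98 and 6.97 in the miR-331-3p arrays, against 7.16, 7.33 and 7.23 in the miR-NC arrays, a log2 difference of -0.22. The NM_001003790 probe had 6.96, 6.97 and 6.88 in the miR-331-3p arrays, against 7.03, 7.05 and 7.11 in the miR-NC arrays, a log2 difference of -0.13. At each of these probes all miR-331-3p arrays lay below all miR-NC arrays, as at the NM_007175 probe. The same held for 13.3% of all tested probes, and ERLIN2 was chosen on this contrast, so this is a description. In rank from the largest decrease the NM_001003791 and NM_001003790 probes stood at 1585 and 3329.

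The dimmer ERLIN2 probes lay in a range of signal where few probes on the arrays showed a large difference. Of the 5699 tested probes with a mean signal under 7.5, a bound set after the values were seen, 6 (0.105%) differed by at least 0.5 on the log2 scale. Of the 8793 probes with a mean of at least 8, 375 (4.26%) did so. The share called at an adjusted p under 0.05 was 1.32% in the dim range and 12.6% in the bright range. The dimmer ERLIN2 probes had means of 7.13 and 7.0 over the 6 arrays, and the NM_007175 probe had 8.76. How much of the gap between the ERLIN2 probes goes with signal, and how much with the transcripts they read, was not tested. A probe's annotated transcript does not say which other transcripts of the gene it reads, since probe sequences were not used here.

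**Figure D1:**
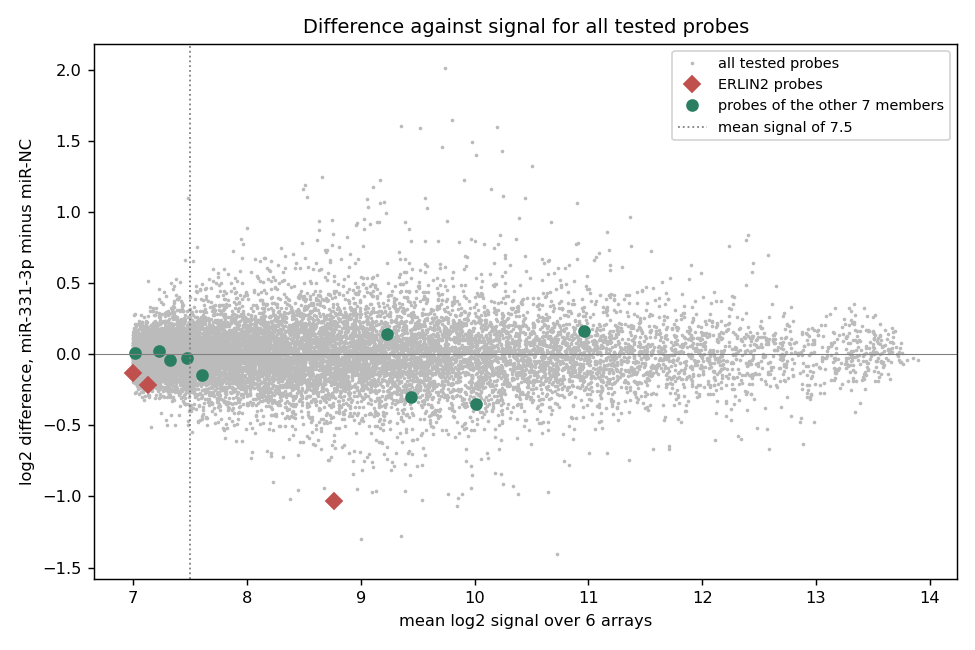
Difference between groups (log2, miR-331-3p minus miR-NC, vertical axis) against the mean log2 signal over the 6 arrays (horizontal axis) for the 16752 tested probes (grey). The ERLIN2 probes (diamonds) lie at differences of -1.03, -0.22 and -0.13, the last pair left of the dotted line at 7.5, where the spread of all probes is narrow. The other 7 members (circles) run from -0.35 to 0.16.

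Spread between probes of 1 gene was usually small. Among the 2456 named genes with more than 1 tested probe, the median distance between the highest and the lowest difference was 0.13. It was 0.90 for ERLIN2, which is among these genes, and 7 genes had a larger distance. ERLIN2 was chosen because its probes lay apart, so its place here is a description only. Among the 12 genes, ERLIN2 included, with a called probe lower by at least 0.8 and another tested probe, 8 had a second probe called lower. ERLIN2 enters this count through the contrast it was chosen on, so the count is a description as well.

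**Figure D2:**
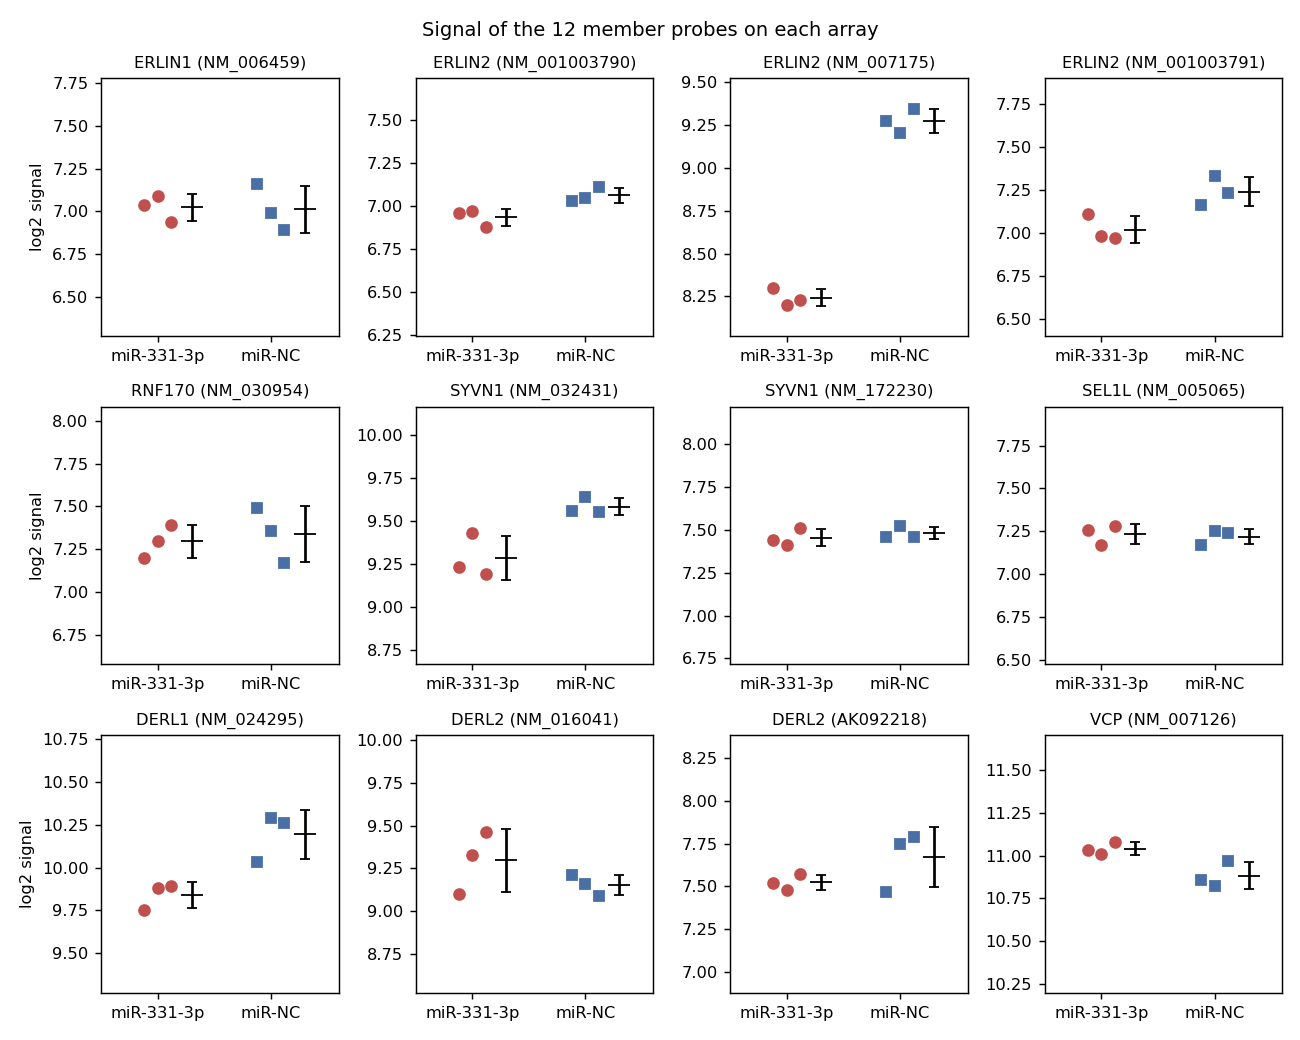
Log2 signal of each of the 12 member probes on the 3 miR-331-3p arrays (circles, left) and the 3 miR-NC arrays (squares, right), with the mean and SD of each group (n = 3) beside the points. Every panel spans the same height of log2 units. The ERLIN2 probe annotated to NM_007175 is the panel with the widest gap, at 8.20 to 8.30 against 9.20 to 9.34.

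ERLIN1, the partner of ERLIN2 in the same assemblies, did not pass the test. Its probe had 7.04, 7.09 and 6.94 in the miR-331-3p arrays, against 7.16, 6.99 and 6.89 in the miR-NC arrays. The groups overlapped, with the highest and the lowest value both in miR-NC arrays, and the log2 difference was 0.01 (95% interval -0.18 to 0.20, adjusted p = 0.96 from limma). With a mean of 7.02 this probe was as dim as the dimmer ERLIN2 probes.

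RNF170, the ligase that the erlins carry, had 7.20, 7.30 and 7.39 in the miR-331-3p arrays, against 7.49, 7.36 and 7.17 in the miR-NC arrays. Its groups overlapped as well, and the log2 difference was -0.04 (95% interval -0.25 to 0.16, adjusted p = 0.85 from limma). The sign of the differences at ERLIN1 and RNF170 turned when single arrays were left out. Among the IP3 receptors, the calcium channels that the erlins help to degrade, ITPR1 and ITPR3 did not pass, at log2 differences of -0.06 and 0.06, and ITPR2 lay under the minimum signal of 7 and was not tested.

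SYVN1, the HRD1 ligase, was read by 2 probes. The brighter one (NM_032431) had 9.23, 9.43 and 9.19 in the miR-331-3p arrays, against 9.56, 9.64 and 9.55 in the miR-NC arrays. The groups did not overlap, and array B was the highest in each. The log2 difference was -0.30 (standard error 0.083, 95% interval -0.48 to -0.12), with adjusted p = 0.051 from limma, just outside the threshold. With the replicate block it passed, at 0.044, as it did when miR-331-3p replicate B was left out, at 0.034, and over all alternatives the adjusted p ran from 0.034 to 0.19. The dimmer SYVN1 probe (NM_172230) gave -0.03 (95% interval -0.18 to 0.13), with overlapping groups.

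SEL1L, the adaptor that holds SYVN1 in its complex, had 7.26, 7.17 and 7.28 in the miR-331-3p arrays, against 7.17, 7.25 and 7.24 in the miR-NC arrays. The groups lay on top of each other, and the log2 difference was 0.02 (95% interval -0.14 to 0.18, adjusted p = 0.93 from limma). Its sign turned with array weights and on leaving out single arrays.

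DERL1, a derlin of the export channel, was the 1 member outside ERLIN2 that passed the test. Its log2 signals were 9.75, 9.88 and 9.89 in the miR-331-3p arrays, against 10.03, 10.29 and 10.26 in the miR-NC arrays, so that the groups did not overlap and array A was the lowest in each. The log2 difference was -0.35 (standard error 0.088, 95% interval -0.55 to -0.16, adjusted p = 0.033 from limma), a signal 1.28-fold lower in the miR-331-3p arrays. On leaving out single arrays the log2 difference ran from -0.44 to -0.30. The call was kept when miR-NC replicate A (adjusted p = 0.022) or miR-331-3p replicate C (0.023) was left out. It was lost without miR-331-3p replicate A (0.089), miR-331-3p replicate B (0.079), miR-NC replicate B (0.14) or miR-NC replicate C (0.13). It was also lost with no minimum signal (0.053) and with the methods' t-test (0.19).

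DERL2, the second derlin, had probes on opposite sides of 0, neither past the threshold. The NM_016041 probe had 9.10, 9.33 and 9.46 in the miR-331-3p arrays, against 9.21, 9.16 and 9.09 in the miR-NC arrays, a log2 difference of 0.14 (95% interval -0.06 to 0.35). Here the miR-331-3p arrays were spread more widely than the miR-NC arrays (SD 0.18 in miR-331-3p arrays and 0.060 in miR-NC arrays). The probe annotated to the cDNA AK092218 had 7.52, 7.48 and 7.57 in the miR-331-3p arrays, against 7.47, 7.75 and 7.79 in the miR-NC arrays, a log2 difference of -0.15 (95% interval -0.35 to 0.05), with miR-NC array A apart from B and C.

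VCP, the ATPase at which the pathways of the different ligases meet, had 11.03, 11.01 and 11.08 in the miR-331-3p arrays, against 10.86, 10.82 and 10.97 in the miR-NC arrays. All miR-331-3p arrays lay above all miR-NC arrays, by a narrow margin. The log2 difference was 0.16 (95% interval -0.01 to 0.32, adjusted p = 0.24 from limma), and it passed under none of the alternatives.

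**Figure D3:**
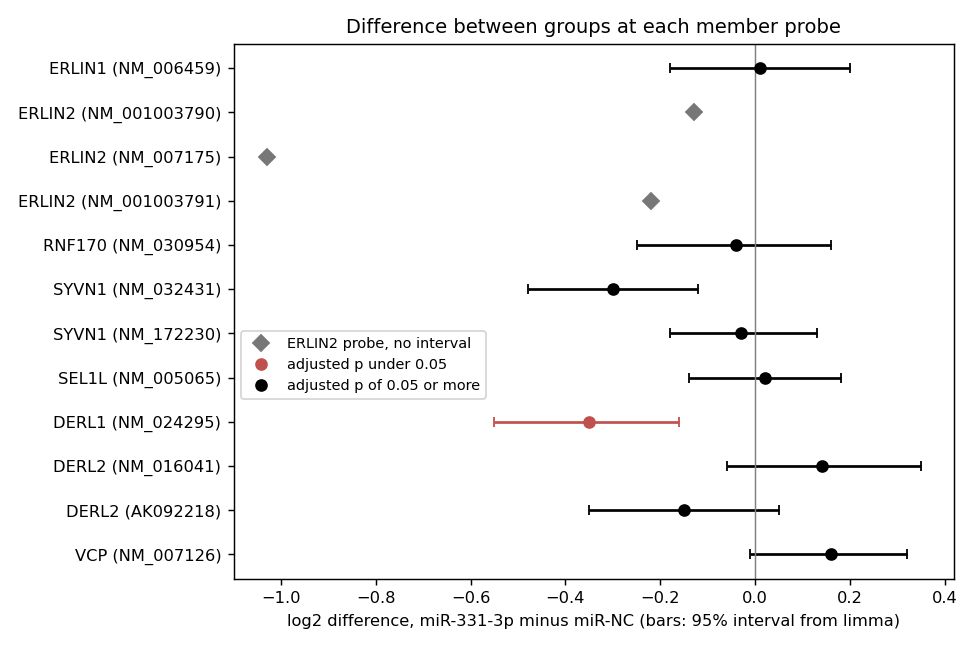
Log2 difference (miR-331-3p minus miR-NC) at each member probe, with the 95% interval from limma for the 7 members outside ERLIN2; ERLIN2 probes are shown as diamonds without an interval. The interval of DERL1 runs from -0.55 to -0.16 and that of SYVN1 (NM_032431) from -0.48 to -0.12, while those of the other 7 probes include 0.

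Over the 9 probes of the 7 genes outside ERLIN2, 1 was called lower and 0 were called higher (DERL1; by limma, with 2 of the 9, those of DERL1 and the brighter SYVN1 probe, at an unadjusted p under 0.05, and 0 called by the methods' t-test after adjustment). Over all tested probes, 7.96% were called, 3.66% lower and 4.30% higher. The share of all tested probes at an unadjusted p under 0.05 was not counted, and is at least that 7.96%. The groups did not overlap at 3 of the 9 probes, lower at DERL1 and SYVN1 and higher at VCP, where 26.7% of all tested probes had groups that did not overlap (13.3% lower and 13.4% higher). For each of these 3 probes the exact permutation test gave p = 0.1 (two-sided), the smallest that 3 arrays against 3 allow. The median log2 difference of the 9 probes was -0.03, beside -0.0028 over all tested probes.

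Around these members, 95 further genes in 8 groups of the degradation pathway and its surroundings were read from the same fit, of which 83 had a tested probe. In this wider set 5 genes were called higher and 2 lower. Over all named genes with a tested probe, 5.49% had a probe called higher and 4.52% one called lower. With the methods' t-test after adjustment, 0 of the 83 were called. Of the listed genes, 4 lay under the minimum at every probe, and 8 were not analysed here.

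Of the 11 tested genes of the HRD1 complex, DERL1 was lower and UBE2J1 was higher. Over all named genes with a tested probe, 4.52% had a probe called lower and 5.49% one called higher. UBE2J1, the ubiquitin-conjugating enzyme anchored in the ER membrane that works with SYVN1, had 8.53, 8.53 and 8.46 in the miR-331-3p arrays, against 8.07, 8.27 and 8.21 in the miR-NC arrays. The groups did not overlap, and the log2 values differed by 0.32 with a standard error of 0.078 (limma, adjusted p = 0.028). The call was kept on leaving out miR-331-3p replicate C, and lost on leaving out any other array, at adjusted p up to 0.10. The lectins OS9 and ERLEC1, which pass glycoproteins to the complex, gave 0.10 and 0.19, neither past the threshold. The median of the group was 0.086.

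Under limma, 0 genes were called among the 4 tested genes of the erlin complex and its IP3 receptors, the 11 tested membrane ligases of the other ER branches, the 24 tested VCP cofactors and handling factors (VCP itself included) and the 12 genes of glycan trimming and substrate recognition. At an unadjusted p under 0.05 there were 0, 3, 7 and 2 genes, in the same order, and the methods' t-test called 0 in each after adjustment. The share of all tested probes under that unadjusted p was not counted. It is at least the 7.96% called after adjustment, so these counts cannot be read as an excess. The medians were -0.016, -0.021, 0.024 and -0.018. Chosen after their values were seen, as the widest of the ligases and of the VCP cofactors, RNFT1 gave -0.34, FAF1 -0.36 and NPLOC4 0.32, with adjusted p = 0.072, 0.086 and 0.094 from limma.

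Of the 6 tested genes of sterol sensing and sterol-regulated degradation, 1 was higher. Over all named genes with a tested probe, 5.49% had a probe called higher. SQLE, the squalene epoxidase that is itself degraded when sterols are plentiful, had 10.25, 10.39 and 10.11 in the miR-331-3p arrays, against 9.88, 9.91 and 9.96 in the miR-NC arrays. It was higher by 0.33 on the log2 scale (limma, adjusted p = 0.037), while its dimmer probe gave 0.18 without passing. When miR-331-3p replicate C was left out the adjusted p was 0.0074, and on leaving out any other array the call was lost, at adjusted p up to 0.13. INSIG1 and INSIG2, the sterol-dependent anchors to which erlins have been linked, gave no call, with -0.28 and -0.11 at the probes of INSIG1 and -0.13 for INSIG2.

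The relatives of the erlins by their SPFH domain held the largest difference of the wider set. PHB2, a prohibitin of the inner mitochondrial membrane, had 10.72, 10.75 and 10.45 in the miR-331-3p arrays, against 9.76, 9.91 and 9.73 in the miR-NC arrays. Its groups were clearly apart, at a log2 difference of 0.84 with a standard error of 0.095 (limma, adjusted p = 0.00041), and the call was kept on leaving out each array in turn and lost with the methods' t-test (adjusted p = 0.071). PHB2 also stands on the list of down regulated genes that the study drew from these samples, which is the opposite direction. STOML2, another mitochondrial member, ran from 11.91 to 12.04 in the miR-331-3p arrays, against 11.65 to 11.78 in the miR-NC arrays, a log2 difference of 0.29 (limma, adjusted p = 0.039). The replicate block (0.061), an intensity trend (0.061), the methods' t-test (0.12) and the removal of any array each ended this call. The other tested relatives, PHB1, STOM, STOML1, FLOT1 and FLOT2, did not pass. So 2 of 7 were higher and 0 were lower, where 5.49% of all named genes had a probe called higher and 4.52% one called lower. The methods' t-test called 0 of them after adjustment.

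**Figure D4:**
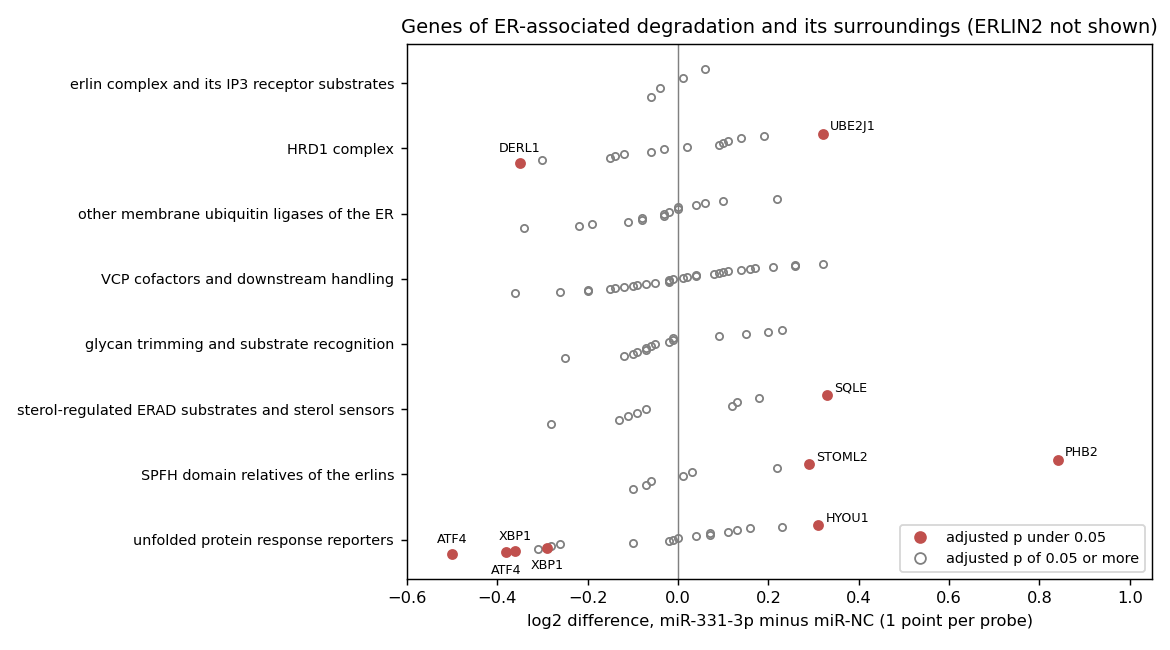
Log2 difference (miR-331-3p minus miR-NC) of each tested probe in the 8 groups of genes around the members, 1 point per probe, with probes at an adjusted p under 0.05 filled and named. Among the called probes PHB2 lies farthest to the right, at 0.84, and ATF4 farthest to the left, at -0.50.

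Since several genes of the HRD1 branch are induced when unfolded proteins gather in the ER, 16 genes of that response were set beside the members. Of 15 tested, 1 was higher and 2 were lower, with a median of -0.0003. Over all named genes with a tested probe, 5.49% had a probe called higher and 4.52% one called lower. ATF4, the transcription factor of the PERK arm, was lower at 2 of its 3 probes, with 8.52, 8.73 and 8.57 in the miR-331-3p arrays, against 9.06, 8.99 and 9.28 in the miR-NC arrays, at the probe with the larger difference. Its log2 differences were -0.50 and -0.38 (adjusted p = 0.0079 and 0.022 from limma), with -0.10 at the third probe. The call at -0.50 was kept on leaving out each array in turn and lost with the methods' t-test (0.14). The call at -0.38 was kept without miR-331-3p replicate B or C or miR-NC replicate B, and lost without the other arrays, at adjusted p up to 0.10.

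XBP1, whose spliced product switches on degradation genes, had 11.54, 11.78 and 11.40 in the miR-331-3p arrays, against 11.91, 11.98 and 11.92 in the miR-NC arrays, at its NM_005080 probe. Its second probe (NM_001079539) also had groups that did not overlap, and the log2 differences were -0.36 and -0.29 (adjusted p = 0.044 for each, from limma). Without miR-331-3p replicate B the first of these had adjusted p = 0.017 from limma. On leaving out any other array both calls were lost, the second also without miR-331-3p replicate B, at adjusted p up to 0.17. The first was also lost with no minimum (0.085), array weights (0.055), cyclic loess (0.052) and the methods' t-test (0.24). The second was also lost with cyclic loess, an intensity trend (0.063) and the methods' t-test (0.16). Each call was kept in 4 of 13 alternatives. HYOU1, a chaperone of the ER lumen, had 10.23, 10.33 and 10.46 in the miR-331-3p arrays, against 10.05, 9.97 and 10.06 in the miR-NC arrays, a log2 difference of 0.31 (adjusted p = 0.037 from limma), and its other probe gave 0.11. The call of HYOU1 was kept without miR-331-3p replicate A alone, and lost on leaving out any other array, at adjusted p up to 0.15. HSPA5 (BiP), HSP90B1, MANF and SDF2L1, chaperones and factors of the ER lumen, did not pass the test, at 0.23, 0.07, -0.02 and -0.01. Neither did the transcription factors ATF6 and DDIT3 (CHOP), at -0.28 and -0.31 (adjusted p = 0.053 and 0.093 from limma) with groups that did not overlap, nor the pseudokinase TRIB3, at -0.26 (0.20) with groups that did. At an unadjusted p under 0.05 from limma there were 6 of the 15 genes. The share of all tested probes under that p was not counted, and is at least the 7.96% called after adjustment. This count therefore cannot be read as an excess.

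Promoter sequences from RefSeq (GRCh38.p14, 250 bases before to 50 after each gene's start) were at hand for 4 of the 8 members, SYVN1, SEL1L, DERL2 and VCP, and for 80 of the members and listed genes together. They were searched on both strands for the ER stress element ERSE (CCAAT and CCACG with 9 bases between them), for ERSE-II (ATTGG and CCACG with 1 base between them) and for the unfolded protein response element UPRE (TGACGTGG). ERSE was found in 6 of the 80 genes and in 0.0769% of all 35116 promoters, ERSE-II in 3 of the 80 and in 0.0541% of all, and UPRE in 6 of the 80 and in 0.729% of all. A listed gene counts with a match in any of its promoters, while the share of all counts single promoters. The lists were drawn up to hold genes of the unfolded protein response, so the gap between these shares is no finding. Among the members, VCP alone held a match, to UPRE. Of the genes with a match, windows are printed only for VCP and for the called genes UBE2J1, XBP1 and HYOU1. The search was added after the values were seen. Each window is 30 bases, 5′ to 3′ on the strand of the gene (minus strand for all), with the fixed letters of the element in capitals.
VCP, UPRE, chr9:35072796-35072825: ttgcggccaatTGACGTGGcgttactaggc
UBE2J1, UPRE read on the opposite strand, chr6:89352935-89352964: cgaagctactgCCACGTCAgggcaacttca
XBP1, ERSE, chr22:28800597-28800626: gctggCCAATcgcggagggCCACGaccgta
HYOU1, ERSE-II read on the opposite strand, chr11:119057370-119057399: gccccgtgaCGTGGtCCAATcccaggccga
In HYOU1 this ERSE-II match overlaps a UPRE match, and the promoter holds a second ERSE-II match. Beside the elements stand log2 differences of 0.16 for VCP (not called), 0.32 for UBE2J1, -0.36 and -0.29 for XBP1, and 0.31 and 0.11 for HYOU1. The other matches lay in CALR, CANX, CRELD2, HSP90B1 and HSPA5 (ERSE), HERPUD1 and SDF2L1 (ERSE-II), and DNAJC10, INSIG2 and TXNDC11 (UPRE). HERPUD1 was not analysed. The rest of these were not called, at log2 differences from -0.13 (INSIG2) to 0.23 (HSPA5). A match is a description of the letters, not a site in use.

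The gene order around ERLIN2 was also looked at, by a choice made after the values were seen. Of the 4 protein-coding genes on each side in the RefSeq order, 4 had a tested probe, and 2 of these were lower. Over all named genes with a tested probe, 4.52% had a probe called lower. PLPBP, next to ERLIN2 and the gene of a pyridoxal phosphate-binding protein, had 8.57, 8.61 and 8.54 in the miR-331-3p arrays, against 8.80, 9.02 and 9.0 in the miR-NC arrays, a log2 difference of -0.36 (adjusted p = 0.019 from limma). This call was lost without miR-331-3p replicate B or without miR-NC replicate B or C, at adjusted p up to 0.092, and with the methods' t-test (0.13). RAB11FIP1, a RAB11 effector in endosome recycling, had 9.87, 9.75 and 9.67 in the miR-331-3p arrays, against 10.59, 10.77 and 10.44 in the miR-NC arrays, a log2 difference of -0.83 (adjusted p = 0.00043 from limma). The methods' t-test ended this call (0.073). A second probe of RAB11FIP1 with a mean signal of 7.20 did not follow, at -0.01. BRF2 and DUSP26 did not pass, at -0.06 and -0.07.

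By the likeness of their signals over the 6 arrays, the genes closest to the ERLIN2 probe annotated to NM_007175 were ISCU, TJP1, GSTA1, SLC35B4 and RHNO1. Their Pearson correlations with it were 0.999, 0.996, 0.996, 0.994 and 0.994, and their log2 differences were -0.97, -0.77, -0.59, -0.50 and -0.51. The 6 points of each correlation fall into the same 2 groups of arrays, so these values mostly restate the difference between the groups, and no test was made.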

How the data were processed

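Total RNA from LNCaP cells was hybridised to 6 Illumina Human-6 v3 arrays, in groups of 3 named by their labels. The authors deposited log2 signals, made by background correction and variance stabilization (lumi) followed by quantile normalization (Partek Genomics Suite). A second table, of raw signals, holds 12 columns that no label ties to a sample, so those columns were not used. Of 48802 probes, 27577 had 1 gene symbol in the platform annotation, 13 had several and were not named, and 21212 are unnamed here. For 27540 probes the symbol was updated through the gene identifier from RefSeq (GRCh38.p14).

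Probes averaging 7 or more on the 6 arrays, 16752 in all, entered limma 3.58.1 (R 4.3.3; lmFit, then eBayes, with no replicate term). P-values are two-sided and were adjusted by Benjamini and Hochberg's method across these probes, with a threshold of 0.05. Differences are miR-331-3p minus miR-NC, and intervals are 95% on 11.1 degrees of freedom, of which 7.11 are shared between probes. Named were all members, the called genes of each list (the 4 with the smallest p where more passed), untested members, the 5 genes most like the ERLIN2 probe, and RRBP1, ERBB2, DOHH and RALA. Other genes were named after their values were seen. Some listed genes are not reported here. The members, lists, minimum and alternatives were chosen with earlier results of these data known. In list medians each gene was represented by its brightest probe. The fit was tested on simulated data.

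Alternatives were no minimum, a minimum of 7.5, an intensity trend, cyclic loess, a replicate block, array weights, the methods' t-test and leaving out each array. The number of arrays limits the precision. Figures were drawn with matplotlib 3.10.9 in Python 3.11.15.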

Additional observations from a re-analysis of the deposited data

How the results depend on the processing

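The ERLIN2 probe annotated to NM_007175 kept a difference of -1.06 to -0.99 under all alternatives run, a range that leaving out single arrays set. With the methods' t-test the counts of all tested probes were 115 higher and 49 lower, against 720 and 613 as reported, and leaving out 1 array gave 363 to 765 higher and 263 to 697 lower. Member probes outside ERLIN2 called lower numbered 0 with no minimum, 0 with the methods' t-test and 0 to 1 on leaving out 1 array, against 1 as reported. Pathway genes called lower numbered 0 with the methods' t-test, 8 with array weights, 1 with cyclic loess and 1 to 3 on leaving out 1 array, against 2 as reported. Pathway genes called higher numbered 0 with the methods' t-test, 3 with an intensity trend and 1 to 3 on leaving out 1 array, against 5 as reported. The sign turned for SEL1L with array weights (-0.01) and on leaving out single arrays (-0.01 to 0.05), for ERLIN1 (-0.05 to 0.09) and for RNF170 (-0.13 to 0.03). The cause was not tested. Of 280 values of single probes under alternatives, 206 kept their direction and side of the threshold, 64 lost a call, 2 gained one and 8 turned in sign. The 206 include the values of the dimmer ERLIN2 probes, which carry no test and kept their direction. A call could be lost only at probes called as reported.

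The letters A, B and C were not taken as pairs, since the labels give no shared source and the correlations show no clear pairing: the deviations of same-lettered arrays from their group means correlated at -0.043, 0.017 and 0.224. With the replicate block, 742 probes were higher and 670 lower, 2 member probes outside ERLIN2 were lower (DERL1 and SYVN1), and 4 pathway genes were higher and 3 lower. Normexp correction of raw signals and the slide as a block were not run, since the raw columns could not be tied to samples and the files used here give no slide. The means of 6 member probes lie under 7.5, those of ERLIN1, RNF170 and SEL1L, the dimmer SYVN1 probe and 2 of the ERLIN2 probes. In that range few probes on the arrays showed a large difference. The part of signal in the differences at these member probes was not tested.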
